A study of Mus musculus with 12 samples.

Results

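The genes described are 10 markers of macrophages and of the splenic red pulp, measured in sorted megakaryocytes (MKs), the cells that release platelets. They are C1qa, C1qb, C1qc, Cd68, Lyz2, Csf1r, Adgre1, Vcam1, Hmox1 and Slc40a1, and they are 10 of the 55536 genes in the table. The list was written by name from what these genes are known for, but with earlier results of these data known. All 10 were found in it. MKs were sorted from Pf4-TdTomato mice, from bone marrow (BM) or from spleen, 5 days after an injection of saline or the start of sepsis. Each of these 4 groups has 3 libraries, and each library was made from 300 cells. In these mice the Pf4 promoter, which is active in MKs, drives a Cre recombinase that switches on the red protein tdTomato. All 4 groups carry both transgenes. Sepsis was an i.p. injection of cecal slurry at a nonlethal dose. Sorted cells were tdTomato, CD45, CD41 and CD42b positive, and the lineage antibodies used to discard other cells included those against F4/80, the protein that Adgre1 encodes, and CD11b. Each library is 1 pool of cells described as an independent replicate of its group, and the ages and sexes of the mice behind each library are not used here.

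Macrophages are tissue phagocytes that clear dying cells and microbes, and those of the splenic red pulp take up aged red cells and return their iron to the blood. C1qa, C1qb and C1qc encode the chains of C1q, the recognition molecule of the classical complement pathway, which macrophages make in large amounts. Csf1r encodes the receptor for CSF1, the growth factor that macrophages need, and Adgre1, Cd68 and Lyz2 encode the surface protein F4/80, a lysosomal membrane protein and lysozyme. Vcam1, Hmox1 and Slc40a1 encode an adhesion molecule that binds the integrin VLA-4, the enzyme heme oxygenase-1 and the iron exporter ferroportin, all of which red pulp macrophages express.

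The clearest pattern was in the septic spleen. C1qa, C1qb, C1qc, Csf1r and Vcam1 had between 0 and 4 counts in each of the 3 splenic libraries after sepsis, and every BM library after sepsis was higher for each of these 5 genes. C1qb, Csf1r, Vcam1 and Lyz2 were also lower in every septic splenic library than in every splenic saline library. Over all genes tested, the share with libraries apart in the same direction was 11.0% for the first comparison and 4.51% for the second. For C1qa in the first of these comparisons and Csf1r in the second, the closest libraries differ by less than a count of 0 allows. None of the 10 genes passed edgeR's quasi-likelihood test after Benjamini-Hochberg adjustment in any comparison. Values are given as CPM, the counts of a gene divided by the library total after scaling with TMM factors and expressed per 1e+06.

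The marker genes of other cells have to be read beside all of this. The summed level of 7 MK markers (Pf4, Ppbp, Itga2b, Gp1ba, Gp9, Gp6 and Itgb3) was between 11397 and 46637 CPM in the 6 BM libraries and between 1168 and 3395 CPM in the 6 splenic libraries. The 6 B cell markers summed to between 49.1 and 250.5 CPM in BM and between 2617 and 9564 CPM in spleen, although B220 was among the lineage antibodies. Averaged over treatments edgeR called 3 of the 7 MK markers (Pf4, Ppbp and Itgb3) higher in BM, and 6 of 6 B cell, 4 of 6 plasma cell (Jchain, Xbp1, Mzb1 and Irf4) and 3 of 5 T cell markers (Cd3e, Cd3d and Cd8a) lower in BM, with Mpo, Elane and Epor higher in BM. The 8 neutrophil markers, led by S100a8 and S100a9, summed to at most 266 CPM in BM after saline, to between 2248 and 16671 CPM in BM after sepsis, and reached 20974 CPM in 1 splenic saline library and 10395 CPM in 1 septic splenic library. The part of these cells in the results was not tested. In pooled cells such as these, fewer cells of a type and less RNA per cell cannot be told apart. Total counts per library ran from 7756762 to 27386184, and the library scale factors from 0.713 to 1.43. A count of 0 allows up to 3 counts, or between 0.105 and 0.405 CPM in the single libraries, a limit that takes in counting error and no other.

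Between genes, levels were compared per kilobase of exon. Lyz2 stood far above the rest, with a mean of 571 CPM per kb over the 12 libraries, followed by Cd68 with 23.0 CPM per kb and C1qb with 6.83 CPM per kb. C1qc had a mean of 2.55 CPM per kb, Hmox1 of 2.16, Adgre1 of 1.74, Csf1r of 1.21, Slc40a1 of 1.18 and Vcam1 of 1.06. C1qa was the lowest with 0.204 CPM per kb. The mean of Hmox1 rests on 1 library, since its median was 0.149 CPM per kb, below the medians of all the others except C1qa, which was 0.0650. Lyz2 was the only member with counts in all 12 libraries. The other members lacked a count in between 1 library (Cd68 and Vcam1) and 6 libraries (C1qa).

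**Figure D1:**
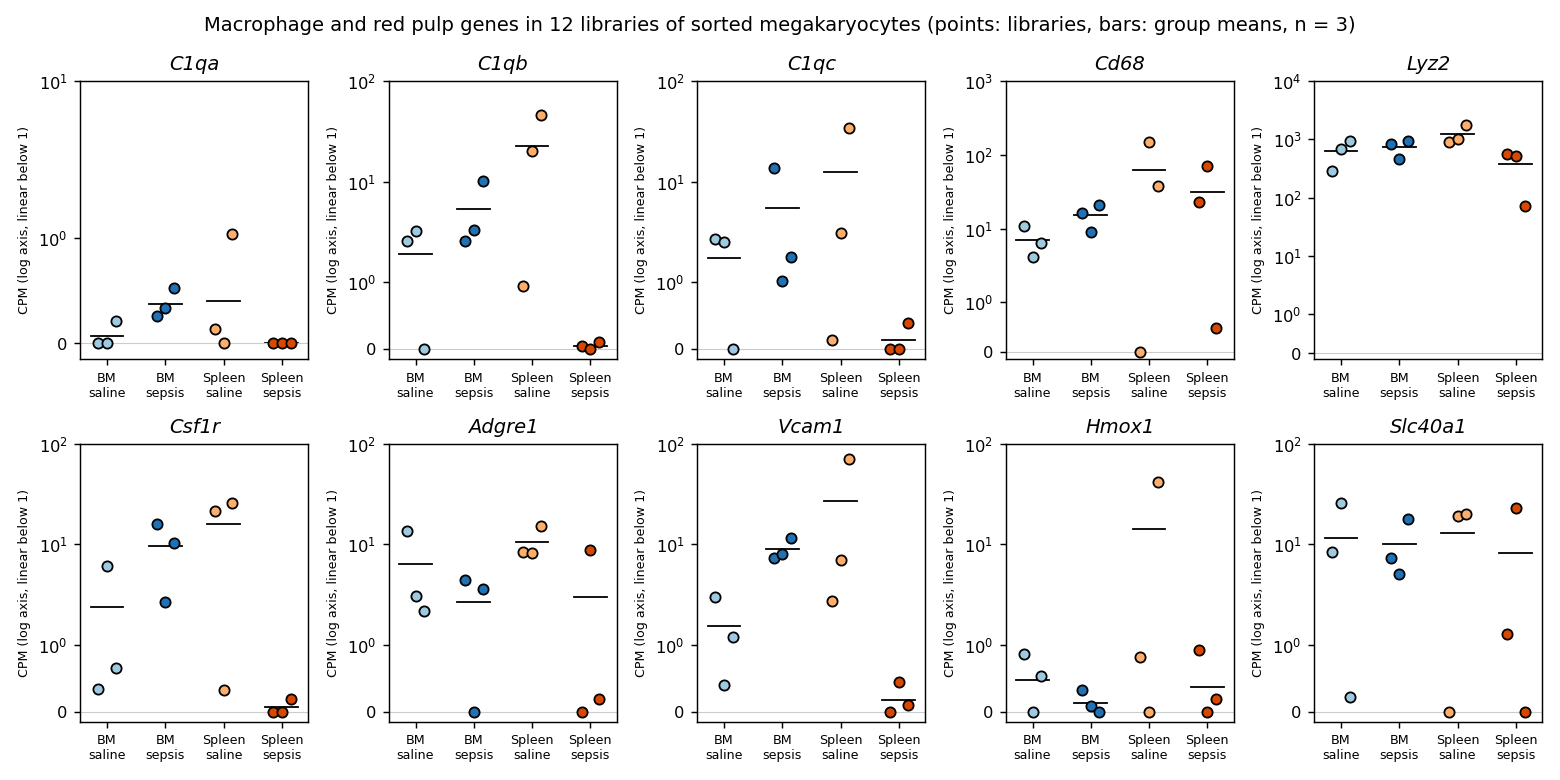
Level of each of the 10 genes in the 12 libraries. Each panel is 1 gene, the vertical axis is CPM (log axis, linear below 1), each point is a library, and each bar is the mean of 3 libraries. In the septic spleen C1qa, C1qb, C1qc, Csf1r and Vcam1 sit at or just above 0, while Cd68, Adgre1 and Slc40a1 spread from near 0 to well above 1 CPM within single groups. Csf1r and C1qc spread as widely in spleen after saline, from 0.330 to 26.0 CPM and from 0.135 to 34.1 CPM.

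The 3 C1q genes lie side by side on the minus strand of chromosome 4 in GRCm38: C1qb (ENSMUSG00000036905) at chr4:136880129-136886187, C1qc (ENSMUSG00000036896) at chr4:136889804-136893065 and C1qa (ENSMUSG00000036887) at chr4:136895917-136898803. For C1qb, the counts were 30, 32 and 0 in BM after saline, 39, 39 and 291 in BM after sepsis, 7, 242 and 432 in spleen after saline, and 1, 0 and 1 in spleen after sepsis. The corresponding levels were 1.92 ± 1.69 CPM (SD, n = 3), 5.36 ± 4.22 CPM, 22.4 ± 22.8 CPM and 0.0495 ± 0.0486 CPM. The septic splenic libraries were thus below all others of the same tissue and below all septic BM libraries, whereas BM and spleen overlapped after saline, as did the saline and septic libraries of BM. Between spleen after saline and after sepsis the pooled counts were 681 and 2, a ratio of 457 (95% exact interval 126 to 3779, counting error only). The edgeR log2 fold change for this comparison was −8.54 (SE 2.34), with an adjusted p of 0.237. Between BM and spleen after sepsis it was 6.47 (SE 2.16), with an adjusted p of 0.197. The first was −7.39 without splenic saline replicate 3 and the second 5.60 without septic BM replicate 3.

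C1qc resembled C1qb in these groups. It had 31, 25 and 0 counts in BM after saline, 207, 12 and 51 in BM after sepsis, 1, 37 and 318 in spleen after saline and 0, 0 and 4 in spleen after sepsis. Here the splenic saline library with 1 count overlapped the septic ones, so that only the tissues after sepsis were apart. The edgeR log2 fold changes were −6.52 (SE 2.74, adjusted p = 0.382) for sepsis in spleen and 5.32 (SE 2.60, adjusted p = 0.389) for BM over spleen after sepsis. The splenic value rests largely on replicate 3 of the saline group, and it was −3.51 without that library. The difference between BM and spleen after saline, −2.85 with it, became 0.17 without it. Without septic spleen replicate 3, the library with 4 counts, the values were −10.33 for sepsis in spleen and 9.17 for BM over spleen after sepsis, and the latter was 3.42 without septic BM replicate 1.

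C1qa was barely detected, although its exons span 1040 bases against 1088 for C1qb. It had 36 counts over all 12 libraries, at most 15 in one, and did not pass the expression filter. The septic BM libraries had 4, 4 and 15 counts, and the septic splenic libraries 0, 0 and 0. A total of 0 over the septic splenic group allows a limit, and the observed C1qa level in the septic BM was 5.33-fold above it. In spleen after saline, whose libraries had 1, 0 and 10 counts, the observed level was 4.92-fold above that limit. Both folds take the counts above 0 as exact. They leave out the error of those counts and the spread between libraries, so they are not lower bounds. The second fold rests on splenic saline replicate 3, and without it 1 count against 0 gives no fold. Library by library the difference is not secure, because a count of 0 allows up to 0.336 CPM in the septic spleen and the lowest septic BM library had 0.261 CPM.

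Vcam1 (ENSMUSG00000027962, chr3:116109949-116129688, minus strand) differed between saline and septic libraries in opposite directions in the 2 tissues. Its levels were 3.01, 0.398 and 1.18 CPM in BM after saline and 7.37, 7.99 and 11.6 CPM in BM after sepsis, so that every septic BM library was higher than every saline one. In spleen the levels were 2.703, 7.01 and 70.8 CPM after saline and 0, 0.448 and 0.0971 CPM after sepsis, so that every septic library was lower. The edgeR log2 fold change with sepsis was 2.55 (SE 1.57, adjusted p = 1) in BM and −7.22 (SE 1.97, adjusted p = 0.230) in spleen. The difference between these changes, tested as the tissue by sepsis interaction, was 9.76 (SE 2.49), with an unadjusted p of 0.000919 and an adjusted p of 0.428. Over the alternative analyses the adjusted p of the interaction ran from 0.000134 to 0.714, and it was under 0.05 with DESeq2 and in edgeR without an expression filter. The splenic saline library with 70.8 CPM, replicate 3, weighs on these values. Without it the change in spleen was −4.68 and the interaction 7.25. Without septic spleen replicate 2, the library with 0.448 CPM, they were −9.06 and 11.63.

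Between tissues Vcam1 was lower in BM than in spleen after saline, with an edgeR log2 fold change of −4.12 (SE 1.68, adjusted p = 0.355), but the libraries overlapped and the value was −1.61 without splenic saline replicate 3. After sepsis it was higher in BM, with 5.64 (SE 1.84, adjusted p = 0.179). The pooled counts after sepsis were 538 in BM and 5 in spleen, a ratio of 74.9 (95% exact interval 31.9 to 231, counting error only). Without septic spleen replicate 2 the fitted value was 7.57. Of the exonic bases of Vcam1, 0.688% are shared with Gm43109 on the other strand, so that few of its counts could belong to that gene.

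Csf1r (ENSMUSG00000024621, chr18:61100598-61132149, plus strand) had 4, 61 and 6 counts in BM after saline, 243, 31 and 290 in BM after sepsis, 160, 4 and 242 in spleen after saline, and 0, 0 and 2 in spleen after sepsis. The 3 septic BM libraries therefore had between 2.64 and 15.8 CPM, against a highest level of 0.194 CPM in the septic spleen. The splenic saline libraries were all higher than the septic ones, but 1 of them, replicate 2, had 0.330 CPM, and a count of 0 in septic spleen replicate 2 allows 0.336 CPM, so that these libraries cannot be told apart at this depth. The edgeR log2 fold change was 7.08 (SE 2.30, adjusted p = 0.177) for BM over spleen after sepsis and −7.82 (SE 2.37, adjusted p = 0.307) for sepsis in spleen. The pooled counts gave ratios of 196 (95% exact interval 54.1 to 1624) and 272 (74.9 to 2256) for the same comparisons. These intervals hold counting error only and leave out the spread between libraries. Without septic spleen replicate 3, the library with 2 counts, the fitted values were 9.99 and −10.69. In BM the change with sepsis was 2.02 (SE 1.80, adjusted p = 1), and it was 4.29 without BM saline replicate 2, the library with 61 counts. Of the exonic bases of Csf1r, 15.12% are shared with the antisense gene Hmgxb3. Whether counting used strand is not given in the sources used here, so that reads there cannot be told apart.

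Lyz2 (ENSMUSG00000069516, chr10:117277331-117282321, minus strand) was the most abundant member. Its levels were 281, 697 and 937 CPM in BM after saline and 825, 468 and 938 CPM in BM after sepsis, which overlapped. In spleen they were 910.3, 1029 and 1776 CPM after saline and 556, 523 and 71.8 CPM after sepsis, which did not. The means of 1239 ± 469 CPM and 383 ± 270.4 CPM (SD, n = 3) gave an edgeR log2 fold change of −1.69 (SE 0.64), with an unadjusted p of 0.0163 and an adjusted p of 0.382. It was −1.17 without septic spleen replicate 3, the library with 71.8 CPM. The neighboring gene Lyz1 is a near-identical copy, and how reads shared by the 2 were counted is not given in the sources used here. Lyz2 is also abundant in neutrophils and monocytes.

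Cd68 (ENSMUSG00000018774, chr11:69664213-69666153, minus strand) did not follow the C1q genes. In spleen its libraries had 0, 148.6 and 37.8 CPM after saline and 23.0, 69.9 and 0.485 CPM after sepsis, so that each group held 1 library near 0 beside one of the 2 highest levels of the series. The BM libraries were less spread, with 10.8, 4.17 and 6.35 CPM after saline and 16.5, 9.01 and 20.7 CPM after sepsis. The edgeR log2 fold change with sepsis was −0.997 (SE 1.43, adjusted p = 0.882) in spleen and 1.11 (SE 1.43, adjusted p = 1) in BM. The splenic value became 0.72 without saline replicate 2.

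Adgre1 (ENSMUSG00000004730, chr17:57358691-57483527, plus strand) was present although cells with F4/80 on their surface had been sorted out. Its levels were 13.7, 3.08 and 2.15 CPM in BM after saline, 4.37, 0 and 3.54 CPM in BM after sepsis, and 8.38, 8.09 and 15.2 CPM in spleen after saline. In the septic spleen 1 library had 8.85 CPM and the others 0 and 0.194 CPM, so that all groups overlapped with their counterparts. The edgeR log2 fold change with sepsis in spleen was −1.81 (SE 2.08, adjusted p = 0.827). BM over spleen after sepsis was −0.19 (SE 2.02), and without septic spleen replicate 2, the library with 8.85 CPM, the 2 values were −6.74 and 4.87.

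Of the iron genes, Hmox1 (ENSMUSG00000005413, chr8:75093621-75100589, plus strand) was almost confined to 1 of the 12 libraries. Splenic saline replicate 3 had 388 counts (41.6 CPM), and the other 11 libraries had at most 18. It did not pass the expression filter, and no fold change between groups was computed from a model. The same library had the highest level in the series of C1qa, C1qb, C1qc, Lyz2, Csf1r, Adgre1 and Vcam1. Its 6 erythroid markers summed to 453 CPM, against 17.6 and 21.1 CPM in the other splenic saline libraries. In BM after saline they summed to between 117 and 342 CPM, with Hmox1 at 10, 0 and 5 counts. Whether erythroid cells had a part in the levels of splenic saline replicate 3 was not tested.

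Slc40a1 (ENSMUSG00000025993, chr1:45908068-45926523, minus strand) had no group-wise pattern. The levels were 8.34, 25.8 and 0.215 CPM in BM after saline, 7.24, 5.02 and 17.8 CPM in BM after sepsis, 0, 19.1 and 20.0 CPM in spleen after saline and 1.29, 23.2 and 0 CPM in spleen after sepsis. All groups overlapped, and the largest of the 4 pairwise log2 fold changes in size was −0.68 (SE 1.86, adjusted p = 0.957), for sepsis in spleen. Without septic spleen replicate 2, the library with 23.2 CPM, that value was −4.18, and BM over spleen after sepsis went from 0.30 to 3.94. Its 2 low splenic saline and septic libraries, saline replicate 1 and sepsis replicate 3, were also the lowest of their groups for Cd68.

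**Figure D2:**
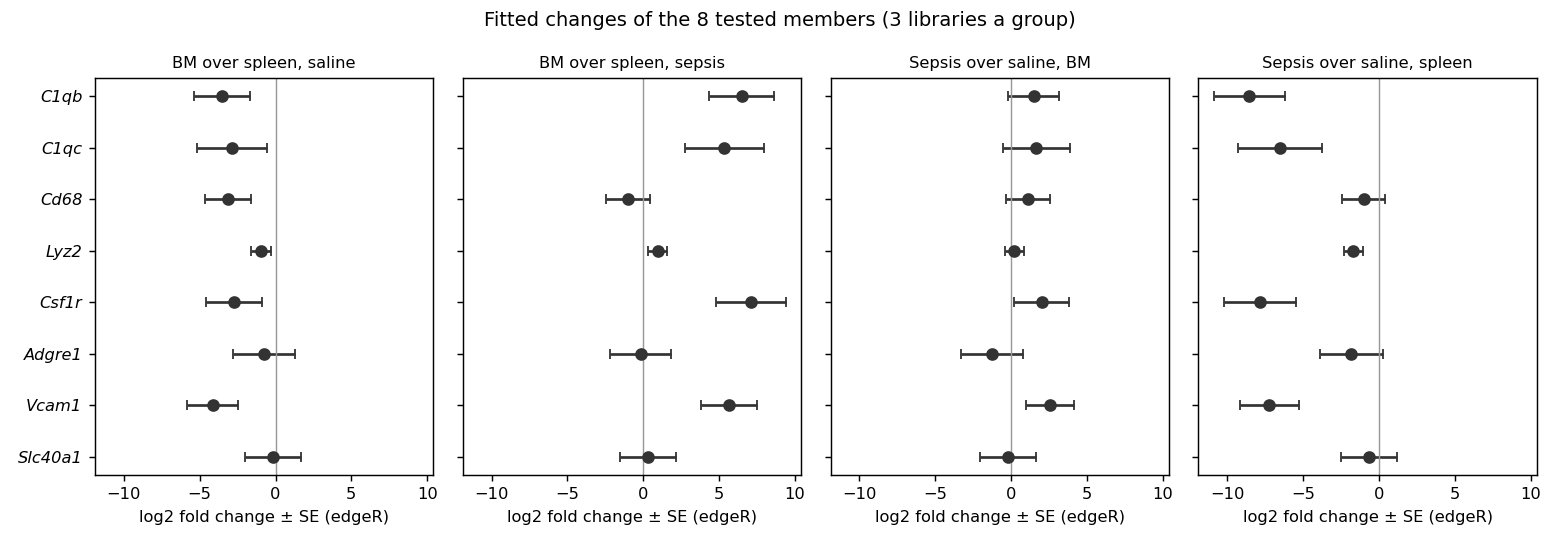
Fitted log2 fold changes (edgeR) of the 8 tested genes in 4 comparisons. Points are estimates and bars are 1 SE, from 3 libraries a group. For sepsis in spleen the values of C1qb, C1qc, Csf1r and Vcam1 lie between −8.54 and −6.52, and for BM over spleen after sepsis between 5.32 and 7.08, with adjusted p values from 0.177 to 0.389.

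Counts over the members were read against those over all 20263 genes tested, of which 8 were members. Since the members were chosen with earlier results of these data known, these counts are descriptions and do not test the list. BM against spleen after saline was the first question, whether MKs of the 2 organs differ without infection. edgeR called 0 of the 8 members and 1.25% of all genes. At an unadjusted p under 0.05 it was 1 member (Vcam1) and 12.5% of all genes. DESeq2 called 1 of 7 members with an adjusted p (Vcam1) and 8.51% of its genes, and limma-voom with quality weights 0 members and 0.913%. The fitted log2 fold change was below 0 for all 8 members, with a median of −2.80 against −0.28 over all genes. BM and splenic libraries overlapped after saline for all 10 members, whereas they did not, in either direction, for 18.3% of the genes tested.

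After sepsis the fitted values were above 0 for 6 of the 8 members. edgeR called 0 of the 8 members and 1.78% of all genes for BM against spleen, and 3 members (C1qb, Csf1r and Vcam1) had an unadjusted p under 0.05, against 12.9% of all genes. DESeq2 called the same 3 members, all higher in BM, and 9.20% of its genes, and limma-voom called 1 (Csf1r) and 3.57%. The adjusted p over the alternatives ran from 0.00219 to 0.405 for Csf1r, from 0.00238 to 0.395 for Vcam1 and from 0.00555 to 0.492 for C1qb. The median log2 fold change of the members was 3.14, against −0.18 over all genes. Every BM library was above every splenic library for 5 of the 10 members, 4 of them among the 8 tested (C1qb, C1qc, Csf1r and Vcam1), against 11.0% of the genes tested.

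Sepsis in BM was the comparison with least to report. edgeR and limma-voom each called 0 members and 0% of all genes, and DESeq2 called 0 members and 1.19% of its genes. At an unadjusted p under 0.05 it was 0 members and 3.54% of all genes. The median log2 fold change was 1.29, against −0.08 over all genes, and 2 of the 10 members, C1qa and Vcam1, had septic libraries above all saline ones. Among the genes tested this was 1 of 8 members and 4.79% of all. For C1qa the lowest septic BM library had 0.261 CPM, and a count of 0 allows up to 0.298 CPM in the saline ones. In this comparison the neutrophil markers were higher in every septic library, as given above.

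Sepsis in spleen gave the lowest values. edgeR called 0 members and 0.158% of all genes. At an unadjusted p under 0.05 it was 5 of 8 members (C1qb, C1qc, Csf1r, Vcam1 and Lyz2, all lower after sepsis) and 13.1% of all genes. DESeq2 called 4 of 7 members (C1qb, C1qc, Csf1r and Vcam1) and 6.32% of its genes, whereas limma-voom called 0 members and 0% of all genes. The adjusted p over the alternatives ran from 6.52e-05 to 0.421 for C1qb, from 2.78e-05 to 0.759 for Vcam1, from 0.000581 to 0.437 for Csf1r and from 0.0317 to 0.670 for C1qc. All 8 fitted values were below 0, with a median of −4.16 against −0.08 over all genes. Every septic library was below every saline one for 4 of the 10 members (C1qb, Csf1r, Vcam1 and Lyz2, all tested), against 4.51% of the genes tested.

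Markers of other cells stood as follows in the splenic libraries, with no dendritic cell or endothelial marker called for sepsis in spleen. The 6 dendritic cell markers summed to between 39.9 and 144 CPM in spleen after saline and between 3.01 and 24.7 CPM after sepsis, with Siglech at 0 in the septic libraries. The 6 endothelial markers, of a cell type that also expresses Vcam1, summed to between 13.4 and 63.6 CPM and between 6.43 and 14.8 CPM, with Emcn at 0 after sepsis, and these ranges overlap. The 13 other macrophage identity genes summed to between 2512 and 4939 CPM after saline and between 642 and 724 CPM after sepsis. The 8 monocyte genes summed to between 981 and 1797 CPM and between 283 and 604 CPM. The 6 plasma cell markers summed to between 46479 and 80709 CPM after saline and between 7463 and 35479 CPM after sepsis. Sums of the B cell markers lay between 2674 and 6334 CPM after saline and between 2617 and 9564 CPM after sepsis. Those of the MK markers lay between 1278 and 3395 CPM and between 1168 and 2208 CPM. Stromal cell markers summed to between 0.135 and 108 CPM and between 4.78 and 25.1 CPM. For B cell, MK and stromal markers the ranges overlap. The 10 members together summed to 73.5 CPM in septic spleen replicate 3, against 581 and 625 CPM in the other septic splenic libraries. Most of each sum was Lyz2, with 71.8 CPM in replicate 3 and 556 and 523 CPM in the others. The part of cells other than MKs in the values of the members was not tested.

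The interaction asks whether the change with sepsis differed between the tissues. edgeR and limma-voom called 0 members and 0% of all genes. At an unadjusted p under 0.05 it was 5 members, the same ones as for sepsis in spleen with which this contrast shares its libraries, and 7.68% of all genes. DESeq2 called 3 (C1qb, Csf1r and Vcam1) and 2.96% of its genes. The median log2 difference was 5.14, against −0.07 over all genes.

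Averaged over treatments, BM against spleen gave 0 members by all 3 tools and by the unadjusted p, while edgeR called 4.75% of all genes (19.3% at an unadjusted p under 0.05), DESeq2 15.6% and limma-voom 7.49%. The median of the members was 0.41, against −0.13 over all genes. Averaged over tissues, sepsis against saline gave 0 members by edgeR, with 0.0691% of all genes called. At an unadjusted p under 0.05 it was 2 members (C1qb and Csf1r) and 10.2% of all genes. DESeq2 called 1 member (C1qb, whose adjusted p ran from 0.0371 to 0.715 over the alternatives) and 3.99% of its genes, and limma-voom 0 members and 0.00494%.

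Genes that work with the members, or mark the same cells, were taken from lists written by hand. Among 13 other macrophage identity genes, Apoe, the lipid carrier that macrophages secrete, was lower in BM than in spleen after saline, with 53.1 ± 23.1 CPM against 372 ± 56.4 CPM (SD, n = 3) and an edgeR log2 fold change of −2.81 (adjusted p = 0.0166). Apoe was no longer called after leaving out replicate 1 or replicate 3 of BM saline (adjusted p = 0.111 and 0.138). Fcer1g, the Fc receptor gamma chain that also signals for GPVI in platelets, fell with sepsis in spleen from 1082 ± 309 CPM to 121 ± 22.9 CPM, a log2 fold change of −3.16 (adjusted p = 0.0307). It was higher in BM than in spleen after sepsis, with 2.65 (adjusted p = 0.0148), a call lost with limma-voom and with the 6 septic libraries alone. Tyrobp, which encodes the adapter DAP12 of myeloid and NK cells, fell with sepsis in spleen from 2187 ± 958 CPM to 212 ± 115 CPM, with −3.36 (adjusted p = 0.0307). The splenic calls of both genes were lost with limma-voom and in a fit of the 6 splenic libraries alone. Averaged over treatments Apoe gave −2.27 (adjusted p = 0.00144) between tissues, and averaged over tissues Tyrobp gave −2.42 (adjusted p = 0.0306) with sepsis, a call lost with limma-voom.

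The other genes of that list were not called. Mertk, the receptor for dying cells, had between 1.64 and 2.12 CPM on average in the 4 groups, and Fcgr1, the high-affinity IgG receptor, between 0.646 and 6.80 CPM. Spi1, which encodes the transcription factor PU.1, had means between 20.8 and 75.5 CPM, Mpeg1, a pore-forming protein of phagocytes, between 14.8 and 93.3 CPM, and Aif1 between 5.80 and 41.2 CPM. Of 13 other genes of red pulp and marginal zone macrophages, 12 were tested and 0 were called in each direction in every comparison. Spic, the transcription factor of red pulp macrophages, had means between 0.718 and 4.07 CPM and the hemoglobin scavenger receptor Cd163 between 0.966 and 2.96 CPM. Vsig4 had no count in any library, and Fcna, Siglec1, Cd209b and Axl had none in the septic spleen. In spleen after saline Fcna had no count in 2 of the 3 libraries, and Cd209b and Axl each had none in 1. Siglec1 ran there from 0.405 to 17.2 CPM, with a median of 1.18 CPM. The mannose receptor Mrc1 had means of 11.1 CPM in spleen after saline and 40.3 CPM after sepsis, Cd5l of 3.50 and 4.75 CPM and the scavenger receptor Marco of 2.56 and 3.01 CPM, each with overlapping libraries. The 13 genes together summed to between 10.9 and 138 CPM, with splenic saline replicate 3 the highest.

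Of 8 monocyte genes, Ly6c2, the surface protein of inflammatory monocytes, was lower in BM than in spleen after saline, with 105 ± 57.0 CPM against 703 ± 387 CPM and a log2 fold change of −2.75 (adjusted p = 0.0406). That call did not hold with library size alone, limma-voom, the 6 saline libraries alone, or without BM saline replicate 1 or 2 or splenic saline replicate 1. Ccr2, the chemokine receptor of the same cells, had 91.4 ± 20.3 CPM in spleen after saline and 16.8 ± 18.3 CPM after sepsis, with −2.44 (adjusted p = 0.382).

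The other lists followed the pathways of single members. None of 16 heme and iron handling genes was called. The heme transporter Slc48a1 had means between 26.6 and 42.2 CPM and the biliverdin reductase Blvra between 64.3 and 147 CPM in the 4 groups. Of 11 complement genes around C1q, 9 were tested and 0 called. C1ra and C1s1, the proteases that join C1q in the C1 complex, had no count in any BM library, and C1s1 had 58 counts in spleen after saline and 1 after sepsis. Of 6 genes around the CSF1 receptor 5 were tested and 0 called, with the ligand Csf1 at 72.1 ± 39.4 CPM in spleen after saline and at 24.6 ± 42.4 CPM after sepsis. The second ligand, Il34, had no count in either septic group.

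Of 6 genes that act with VCAM-1, Itga4, the alpha chain of its receptor VLA-4, was lower in BM when averaged over treatments, with a log2 fold change of −1.61 (adjusted p = 0.0186). Ezr and Msn, which encode the linkers ezrin and moesin, were lower by the same average, with −1.94 (adjusted p = 0.0131) and −1.35 (adjusted p = 0.0235). Itgb1, the beta chain of VLA-4, was not called and had 225 ± 54.8 CPM in BM and 115 ± 21.6 CPM in spleen after saline. The calls of Itga4 and Msn were each lost in 12 of 20 alternatives, and that of Ezr in 3 (library size alone, without BM saline replicate 2 and without septic BM replicate 1). Of 11 lysosome genes, Ctss and Lgmn, proteases that also process antigens for MHC class II, were lower in BM than in spleen. Ctss had 51.4 ± 37.6 CPM in BM and 824 ± 194 CPM in spleen after saline, a log2 fold change of −4.00 with an adjusted p of 0.00667. Its value after sepsis was −3.78 (adjusted p = 0.00629). Lgmn gave −4.84 (adjusted p = 0.00800) after saline and −4.11 (adjusted p = 0.0141) after sepsis, and the first was lost without BM saline replicate 3 and with the 6 saline libraries alone, and the second without septic BM replicate 1 or 2. The lysosomal membrane genes Lamp1 and Lamp2 were not called. Neither Ctss nor Lgmn showed the splenic values of the C1q genes, with 726 ± 455 CPM and 82.1 ± 30.2 CPM in the septic spleen. B cell markers differ between the tissues in the same direction as these genes, and their part was not tested.

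**Figure D3:**
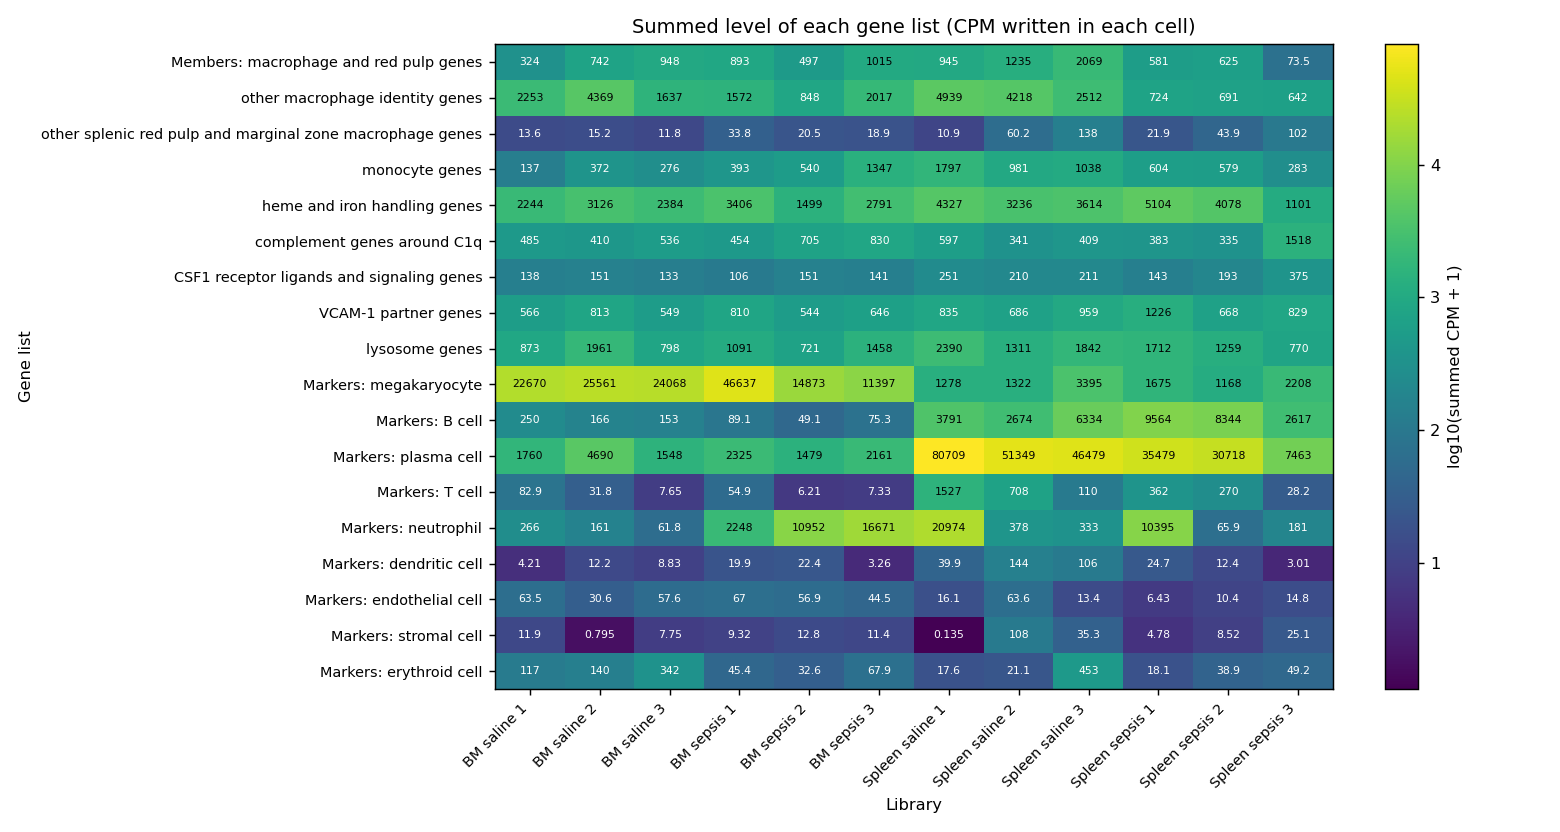
Summed level of each gene list in each of the 12 libraries. Columns are libraries, rows are lists, numbers are summed CPM and color is log10(summed CPM + 1). The 10 members sum to between 945 and 2069 CPM in spleen after saline and between 73.5 and 625 CPM after sepsis. Most of each of these sums is Lyz2, at between 910 and 1776 CPM after saline and between 71.8 and 556 CPM after sepsis. MK markers are higher in BM, and neutrophil markers are high in BM after sepsis and in 1 library of each splenic group.

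Over the 12 libraries the members did not vary as 1 block. The closest pair was C1qb with C1qc (Pearson r = 0.859 of log2 CPM), followed by C1qb with Vcam1 (r = 0.840) and C1qa with Vcam1 (r = 0.800). Cd68 and Slc40a1 formed another pair (r = 0.780), while Cd68 and Csf1r had the lowest value (r = −0.27). These are descriptions over 12 libraries of 4 groups, in which all genes share the library and its depth, and low genes share their zeros. Among all other genes the ones most like Vcam1 were Naip5 (r = 0.939), a sensor of bacterial flagellin, Gla (r = 0.929), a lysosomal galactosidase, and Hfe (r = 0.919), a regulator of iron uptake. The nearest to Lyz2 was Lst1 (r = 0.931), to C1qb Gm2076 (r = 0.886), to C1qc Gm42933 (r = 0.876), to C1qa Il1bos (r = 0.905) and to Csf1r Gm44148 (r = 0.947). The nearest to Cd68 was Spata1 (r = 0.896), to Adgre1 Mul1 (r = 0.924), to Hmox1 Wnt5a (r = 0.889) and to Slc40a1 Soat2 (r = 0.916).

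**Figure D4:**
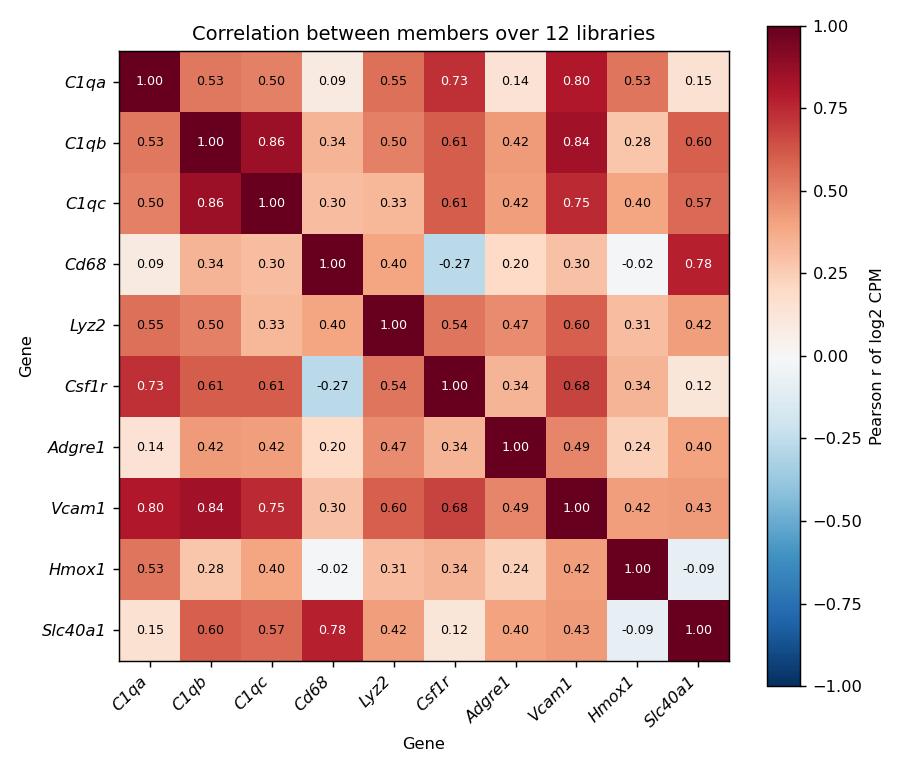
Pearson correlation of log2 CPM between the 10 genes over the 12 libraries. Rows and columns are genes and color and numbers give r. C1qb, C1qc and Vcam1 form a group with r from 0.75 to 0.86, and Cd68 correlates most with Slc40a1 (0.78).

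Entries of the RefSeq promoter table for GRCm38.p6 were used for 4 of the 10 members (C1qb, C1qc, Cd68 and Lyz2). Not every other member was looked up, so no absence from that table is claimed. The 250 bases before the start are shown for C1qb and Cd68, since these 2 genes represent the members near 0 in every septic splenic library and the members that were not, and since in both the window lies before the gene in GENCODE as well. Capitals mark GAGGAA or its reverse complement TTCCTC, the core bound by the macrophage factor PU.1 and other ETS proteins, and TGCTGA or TCAGCA, one side of the palindrome that Maf factors bind, with both strands searched. The windows are chr4:136886201-136886450 for C1qb and chr11:69666171-69666420 for Cd68, both on the minus strand and written 5′ to 3′.
C1qb: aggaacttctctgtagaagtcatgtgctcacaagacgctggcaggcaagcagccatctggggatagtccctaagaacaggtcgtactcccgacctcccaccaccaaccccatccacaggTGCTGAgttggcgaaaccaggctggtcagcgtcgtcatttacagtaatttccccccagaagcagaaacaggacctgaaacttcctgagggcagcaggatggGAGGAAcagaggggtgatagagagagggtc
Cd68: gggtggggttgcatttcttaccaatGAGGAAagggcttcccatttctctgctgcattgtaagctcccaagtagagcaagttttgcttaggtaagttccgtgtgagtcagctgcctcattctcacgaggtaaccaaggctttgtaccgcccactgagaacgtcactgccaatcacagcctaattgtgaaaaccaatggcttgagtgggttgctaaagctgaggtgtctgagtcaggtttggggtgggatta

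The C1qb window holds GAGGAA from 30 to 25 bases and TGCTGA from 131 to 126 bases before the start, and the Cd68 window holds GAGGAA from 225 to 220 bases before it. In the windows not shown, C1qc holds TTCCTC from 193 to 188 bases and Lyz2 holds TGCTGA from 125 to 120 bases before the start. Such matches are common, with the first motif in 23.3% (7631) and the second in 16.1% (5279) of the 32817 promoter windows of this length in the table. They describe the letters only.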

How the data were processed

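RNA-Seq was done on MKs from BM and spleen, 300 sorted cells per library, with the SMART-Seq HT and Nextera XT kits. The authors deposited raw read counts for 55536 genes in 12 libraries. The submitters' processing notes name STAR 2.7.2b, DESeq2 1.26, R 3.6.1 and GRCm38, with annotation release and read assignment not given in the sources used here. All identifiers were found in GENCODE M21 (GRCm38), which gave positions and lengths. Replicates are separate labelled samples, so p values measure the spread between them.

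The main test was edgeR 4.0.16 in R 4.3.3 (filterByExpr, minimum count 10; TMM; quasi-likelihood F test over 4 group means, 8 residual degrees of freedom), and an adjusted p under 0.05 was called. The common dispersion was 2.05. The SE is the log2 fold change divided by the square root of F. DESeq2 1.42.0, limma 3.58.1 (voom), other scalings and filters, a replicate block and each library left out were alternatives. Log2 CPM used a prior count of 2. Figures used Python 3.11.15, pandas 2.3.3 and matplotlib 3.10.9. The edgeR step was tested on simulated data. The members and lists were chosen with earlier results of these data known. Named genes are the 10 members, the first 2 and every called gene of each list, and the genes most correlated with each member, and 1 marker gene is not reported here. Genes named outside these rules were chosen after their values were seen.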

Additional observations from a re-analysis of the deposited data

Results flagged for a closer look

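Vcam1, the adhesion molecule that binds VLA-4, was flagged because its septic libraries lay on opposite sides of the saline libraries in the 2 tissues. All 3 septic BM libraries (7.37 to 11.6 CPM) were above all 3 saline ones (0.398 to 3.01 CPM), and all 3 septic splenic libraries (0 to 0.448 CPM) were below all 3 saline ones (2.703 to 70.8 CPM). The difference between the tissues in the log2 fold change with sepsis was 9.76. It did not pass edgeR's quasi-likelihood test after adjustment over all genes (adjusted p = 0.428).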

How the results depend on the processing

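With edgeR, 0 members were called in each of the 7 comparisons under RLE factors, library size alone, a stricter filter, the replicate block, leaving out the gene segments of immunoglobulins and T cell receptors, a fit of 6 libraries alone (pairwise comparisons), and each of the 12 libraries left out. Without an expression filter 1 member (Vcam1) was called in the interaction. DESeq2 called 1 member for BM against spleen after saline, 3 after sepsis, 4 for sepsis in spleen, 3 for the interaction and 1 for sepsis averaged over tissues, and limma-voom called 1 for BM against spleen after sepsis. The cause was not tested. The common dispersion of 2.05, a biological coefficient of variation of 143%, limits the precision of these values, as do the low counts of C1qa and Hmox1.

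Calls over all genes moved more. Without a filter they were 529 after saline and 595 after sepsis between tissues, 81 for sepsis in BM, 187 for sepsis in spleen, 130 for the interaction and 171 for sepsis averaged over tissues. DESeq2 gave 1313, 1479, 208, 995, 495 and 680 for the same comparisons and 2615 for the average between tissues. limma-voom gave 724 between tissues after sepsis, 0 for sepsis in spleen, 1517 for the average between tissues and 1 for sepsis averaged. For sepsis in spleen the stricter filter gave 20 and the 6 splenic libraries alone 0, and library size alone gave 1515 for the average between tissues. With 1 library left out, calls ran from 197 to 467 between tissues after saline, against 253 with all, from 0 to 12 for sepsis in BM, from 48 to 138 for sepsis in spleen, against 32 with all, from 3 to 48 for the interaction and from 31 to 83 for sepsis averaged, against 14 with all. In the last 3 of these comparisons the highest count was the one without splenic saline replicate 3.

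Library size alone moved the median of all genes by 0.48 and 0.53 between tissues after saline and after sepsis, and by 0.50 in their average. RLE factors moved it by −0.25, −0.13 and −0.19, by −0.18 for sepsis in spleen, by 0.13 for the interaction and by −0.12 for sepsis averaged. The share of higher among called genes was 41.9% between tissues after saline, 69.7% with library size alone and 30.3% with RLE. It was 33.5% and 56.3% with library size alone after sepsis, and 43.6% and 72% in the average. With RLE it went from 37.5% to 26.7% for sepsis in spleen and from 35.7% to 18.2% for sepsis averaged.

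No log2 fold change of C1qb, Csf1r or Vcam1 changed direction under any alternative. Values of other members did, none of them called by edgeR. Between tissues after saline, Cd68 went from −3.12 to 0.11 with limma-voom, and Slc40a1 was 0.18 with library size alone and 0.43 with limma-voom. After sepsis, Adgre1 was 0.36 with library size alone, 1.09 with limma-voom and 0.046 with the replicate block. For sepsis in BM, Slc40a1 was 1.54 with limma-voom and 0.48 with the replicate block. For sepsis in spleen, Cd68 was 1.79 and Slc40a1 0.084 with limma-voom, and the interaction of Cd68 went from 2.11 to −0.50. In the average between tissues, Lyz2 was 0.57 and Adgre1 0.084 with library size alone, Lyz2 was 0.061 without a filter, and Slc40a1 was −0.16 with RLE, −0.064 with the stricter filter and −0.16 with DESeq2. For sepsis averaged, Cd68 was −0.14 with RLE, −0.10 with library size alone, −0.038 with the stricter filter and −0.14 with DESeq2, and Slc40a1 was 0.81 with limma-voom.

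With 1 library left out, the following values crossed 0. Between tissues after saline, C1qc, −2.85 with all, ran from −3.35 to 0.17 and Slc40a1 from −1.49 to 0.45. After sepsis, Cd68 ran from −1.56 to 0.41, Adgre1 from −0.71 to 4.87 and Slc40a1 from −0.38 to 3.94. For sepsis in BM, C1qc ran from −0.27 to 2.17, Lyz2 from −0.12 to 0.62, Adgre1 from −1.79 to 0.026 and Slc40a1 from −0.89 to 1.264. For sepsis in spleen, Cd68 ran from −2.24 to 0.72. In the interaction, Adgre1 ran from −0.050 to 5.53 and Slc40a1 from −0.25 to 3.99. In the average between tissues, Lyz2 ran from −0.22 to 0.27, Adgre1 from −1.06 to 2.10 and Slc40a1 from −0.57 to 1.94. For sepsis averaged, Cd68 ran from −0.55 to 0.93 and Slc40a1 from −2.18 to 0.34.

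Libraries with the same replicate number did not deviate together, with correlations from −0.0566 to 0.0447 over 18 pairs, so the numbers were not read as a pairing. With the replicate number as a block, the Vcam1 interaction was 8.92 (edgeR adjusted p = 0.714), and calls were 288, 401, 0 and 33 in the 4 pairwise comparisons.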
